A study of Drosophila melanogaster with 3 samples.

Results

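Aminoacyl-tRNA synthetases were the genes described here, in a chromatin immunoprecipitation map of CG18764, a ZAD-class zinc-finger protein, in Drosophila melanogaster embryos. The members were the protein-coding genes of the Ensembl annotation whose symbol is an amino acid name, or a joined pair of names, followed by RS, with the suffix -m for the mitochondrial enzymes. The rule gave 33 of 13968 protein-coding genes on the main chromosome arms, 18 cytosolic and 15 mitochondrial. The 2 genes for the cytosolic phenylalanine enzyme, alpha-PheRS and beta-PheRS, carry a prefix, fall outside the rule and are given with the partner genes.

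A single group of 3 biological replicates was sampled, all whole embryos of mixed sex aged 0 to 16 h from flies with a transgene that fuses GFP to the C terminus of CG18764. Chromatin was precipitated with an antibody against GFP, so the protein mapped was the tagged one, although 1 label field names CG18764 itself as the antibody. Sonicated fragments of 200 to 800 bp were used, from 1 transgenic line. Whole embryos mix many cell types, and binding in a few cells cannot be told apart from weak binding in many. The deposited data were peak lists on dm6. The optimal list held 3754 peaks, and the relaxed lists of the pooled replicates and of each replicate held 30000 peaks each, including weak ones. Read depth is unknown.

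Aminoacyl-tRNA synthetases attach each amino acid to its matching tRNA, the step that fixes the genetic code. The cytosolic enzymes serve the ribosomes of the cytosol. The mitochondrial enzymes are encoded in the nucleus too, and are imported to charge the tRNAs that mitochondrial DNA encodes. In animals some single genes make both forms. Class was read here from the suffix alone, so a member counted as cytosolic may also make a mitochondrial form. Because every growing cell needs them, the cytosolic enzymes are counted among the housekeeping genes.

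The windows of 100 bp centred on 6 of the 7 highest optimal summits at synthetase promoters are shown because they carry the binding described next. They were read from the RefSeq sequence of assembly release 6 (dm6) and are written 5′ to 3′ on the strand of the synthetase gene. They lay at chr3L:22288427-22288526 (IleRS), chr2L:3037364-3037463 (SerRS), chr3R:23958478-23958577 (GluProRS), chr2L:12103524-12103623 (ThrRS), chr2L:19132072-19132171 (AsnRS) and chr3R:7886902-7887001 (ArgRS-m). IleRS, ThrRS and ArgRS-m are on the plus strand and the others on the minus strand. Capitals mark matches, on either strand, to any of the motifs searched, which are spelled out with the motif shares.
IleRS: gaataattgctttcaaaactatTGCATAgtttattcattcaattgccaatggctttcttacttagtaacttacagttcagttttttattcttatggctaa
SerRS: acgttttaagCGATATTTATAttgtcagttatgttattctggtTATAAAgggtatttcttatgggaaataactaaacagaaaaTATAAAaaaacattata
GluProRS: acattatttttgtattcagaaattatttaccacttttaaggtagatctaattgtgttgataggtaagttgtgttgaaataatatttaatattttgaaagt
ThrRS: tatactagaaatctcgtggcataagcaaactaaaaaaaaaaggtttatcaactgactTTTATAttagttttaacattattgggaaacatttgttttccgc
AsnRS: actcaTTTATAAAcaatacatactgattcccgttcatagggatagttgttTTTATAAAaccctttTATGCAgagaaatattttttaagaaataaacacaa
ArgRS-m: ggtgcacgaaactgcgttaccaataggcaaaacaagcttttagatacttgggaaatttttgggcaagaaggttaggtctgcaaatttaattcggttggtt

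Synthetase promoters held optimal summits at 12 of 33 genes (36.4%), where 17.9% of all protein-coding genes had one within 500 bp of a transcription start site (TSS). The cytosolic enzymes accounted for 9 of these (IleRS, SerRS, GluProRS, ThrRS, AspRS, AsnRS, TrpRS, ValRS and AlaRS), 50.0% of the 18. The mitochondrial enzymes accounted for 3 (ArgRS-m, CysRS-m and ProRS-m), 20.0% of the 15, close to the share of all genes. Genes are not replicates and the data hold 1 group, so these shares are descriptions with no test. Many of these promoters are shared with another gene, as described with the neighbours.

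Each replicate gave the same order of the enzyme classes. In the relaxed lists of replicates 1, 2 and 3, summits were at 14, 14 and 16 of the 18 cytosolic promoters, a mean of 81.5% ± 6.41 (SD, n = 3). Mitochondrial promoters had 6, 8 and 8 of 15, a mean of 48.9% ± 7.68 (SD, n = 3). The cytosolic share was the higher one in 3 of 3 replicates. Over all protein-coding genes the shares were 39.7%, 50.8% and 53.2%, close to the mitochondrial 40.0%, 53.3% and 53.3%.

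The same held among strong peaks. In the 3754 highest peaks of replicates 1, 2 and 3, cytosolic promoters had summits at 8, 8 and 6 genes, and mitochondrial ones at 1, 2 and 2. All protein-coding genes had 17.0%, 17.6% and 18.0%. In percent this was 40.7% ± 6.41 of cytosolic and 11.1% ± 3.83 of mitochondrial enzymes (SD, n = 3). The mitochondrial share was below that of all genes in each replicate. In the pooled relaxed list 15 cytosolic genes (83.3%) and 7 mitochondrial genes (46.7%) had a summit, against 49.1% of all protein-coding genes.

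**Figure D1:**
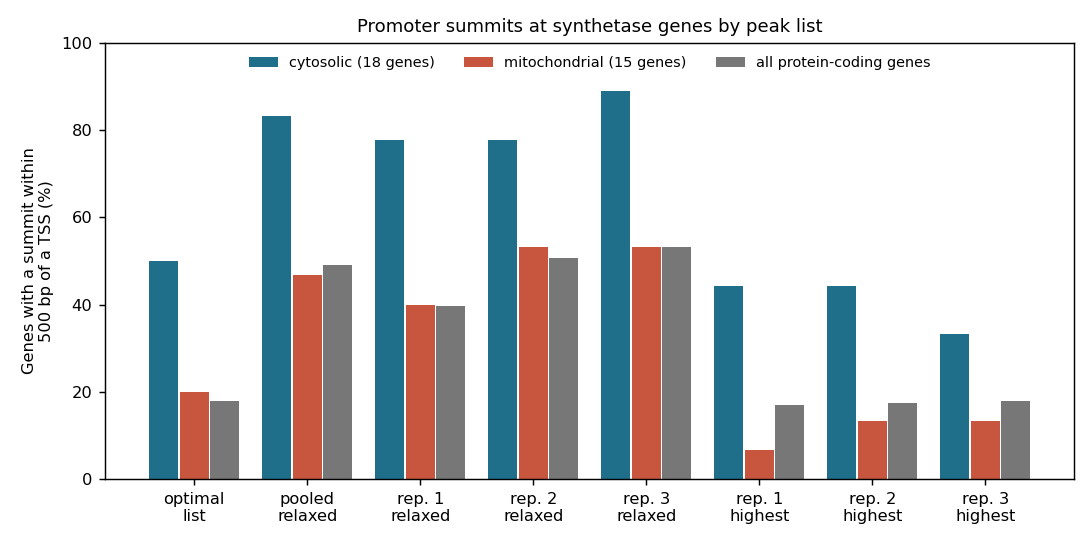
Percentage of cytosolic synthetase genes, mitochondrial synthetase genes and all protein-coding genes (bars) with a summit within 500 bp of a TSS, in the optimal list, the pooled relaxed list and each replicate's relaxed list and 3754 highest peaks. The cytosolic bar is the tallest in each of the 8 lists, from 33.3% to 88.9%, while the mitochondrial bar is close to or below that of all genes.

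The highest synthetase peak was at IleRS, which charges isoleucine (FBgn0027086, 3L:22288665 to 22292810). Its summit at 3L:22288477, in intergenic sequence at −188 bp from the TSS, ranked 326 by signal in the pooled list, where rank 1 is the highest. It ranked 363, 252 and 528 in replicates 1, 2 and 3. SerRS, for serine, followed at rank 424, with 403, 311 and 732 in the replicates. GluProRS, a fused enzyme for glutamate and proline, ranked 439, with 381, 439 and 515. These were the 3 highest synthetases in every replicate, and their mean ranks of 381 ± 139, 482 ± 221 and 445 ± 67.2 (SD, n = 3) overlap within the replicate spread. Their order changed between replicates.

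ThrRS, for threonine, stood below that trio. It ranked 798 in the pooled list and 850, 526 and 1618 in the replicates, a mean of 998 ± 561. AspRS, for aspartate, ranked 1418 with 1034, 2937 and 946 in the replicates, and AsnRS, for asparagine, ranked 1469 with 1355, 958 and 4472. Both spread widely, and AsnRS left the 3754 highest peaks in replicate 3.

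The other 3 cytosolic summits of the optimal list lay near its end. TrpRS, for tryptophan, ranked 3260 in the pooled list, but 13126, 4736 and 4350 in the replicates, so no single replicate placed it among its 3754 highest peaks. ValRS, for valine, ranked 3401 with 21372, 2744 and 2550, and AlaRS, for alanine, ranked 3495 with 5994, 2764 and 4060. Replicate 1 gave each of the 3 genes its lowest standing, and the ranks of TrpRS and ValRS had the widest spread of the optimal members (SD 4959 and 10811, n = 3).

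Among the mitochondrial enzymes, ArgRS-m had the highest peak. It ranked 2157 in the pooled list and 2014, 3569 and 1483 in the replicates, and it was the only mitochondrial enzyme among the 3754 highest peaks of all 3. CysRS-m, for cysteine, ranked 2597 with 4261, 2342 and 3330. ProRS-m, for proline, ranked 3552 with 5398 and 7102 in replicates 1 and 3. Replicate 2 had no summit at its promoter, and its nearest was 15924 bp away. ProRS-m thus entered the optimal list without a promoter summit in 1 of the 3 replicates.

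In all 3 replicates' highest peaks together, 6 synthetase promoters had a summit: IleRS, SerRS, GluProRS, ThrRS, AspRS and ArgRS-m. This is 18.2% of members, where 11.8% of all protein-coding genes met the same rule. In all 3 relaxed lists it was 15 of 33 (45.5%), against 28.2% of all genes, with 12 cytosolic and 3 mitochondrial members. The median rank of the 12 optimal members was 1813, behind the median of 1545 over all protein-coding genes with an optimal promoter summit. Their ranks ran from 326 at IleRS to 3552 at ProRS-m.

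Optimal peaks were also required to recur in the 3754 highest peaks of the other replicates, with summits within 100 bp. Without replicate 1 the count fell from 12 to 7 (21.2%, against 13.1% of all genes). It was 5 without replicate 2 (15.2%, against 12.0%) and 6 without replicate 3 (18.2%, against 12.4%). These sets hold fewer peaks by construction, and the optimal list they start from was still made from all 3 replicates. IleRS, SerRS, GluProRS, ThrRS and ArgRS-m were in each of the 3 sets.

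**Figure D2:**
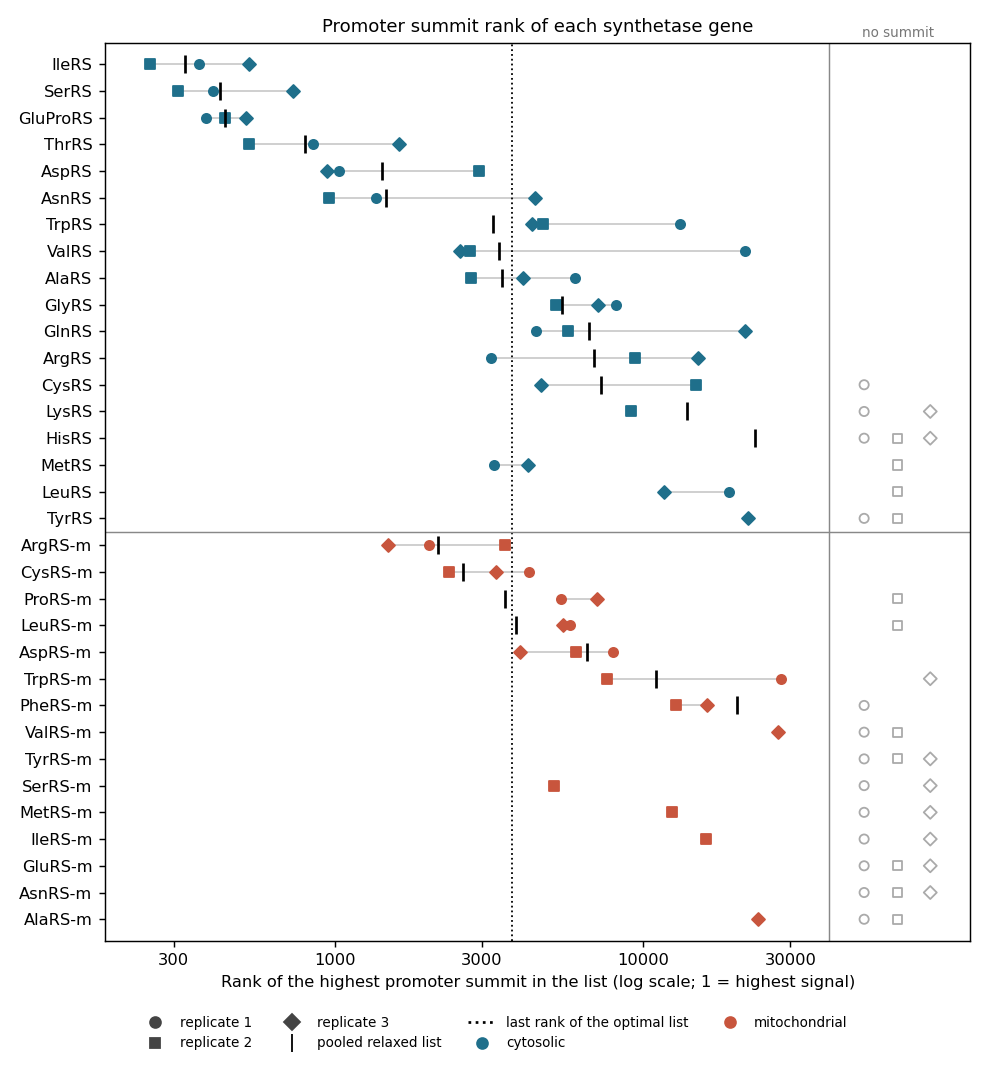
Rank of the highest promoter summit of each of the 33 genes (rows, cytosolic above and mitochondrial below) in replicates 1 to 3 (filled circle, square and diamond) and in the pooled relaxed list (black bar), on a log axis, with open symbols where a replicate has no summit. IleRS, SerRS and GluProRS sit together at 252 to 732 in every replicate, and 4 members have no replicate summit at all.

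A further 10 members had a summit in the pooled relaxed list but not in the optimal list, and all of these except HisRS had one in at least 1 replicate list. LeuRS-m, for leucine, was the nearest to the optimal list, at rank 3867 and a signal of 118, where the optimal list ends at rank 3754 and a signal of 120. It ranked 5781 and 5509 in replicates 1 and 3, with none in replicate 2. GlyRS, for glycine, ranked 5456 with 8180, 5214 and 7138 in the replicates, which all lie beyond the highest 3754. AspRS-m ranked 6546 with 7982, 6058 and 3990. The replicate 2 summit of AspRS-m, at 2L:16827283, lay at the second of its 2 TSS positions, and those of replicates 1 and 3 at the first.

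GlnRS, for glutamine, ranked 6686 with 4492, 5706 and 21422, and ArgRS, for arginine, ranked 6935 with 3200, 9406 and 15011. For both, replicate 3 gave the lowest standing. Below these came CysRS (7297), TrpRS-m (10993), LysRS (13871), PheRS-m (20139) and HisRS (23028). HisRS, for histidine, had no promoter summit in any replicate.

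No pooled summit was found at 11 promoters, 3 cytosolic (LeuRS, MetRS and TyrRS) and 8 mitochondrial (AlaRS-m, AsnRS-m, GluRS-m, IleRS-m, MetRS-m, SerRS-m, TyrRS-m and ValRS-m). A replicate list held one at 8 of these 11. LeuRS had it in replicates 1 and 3 (18966 and 11696), TyrRS, AlaRS-m and ValRS-m in replicate 3 (21867, 23604 and 27431), and MetRS-m in replicate 2 (12412). AsnRS-m, GluRS-m and TyrRS-m had a summit in no list. At SerRS-m the nearest pooled summit lay 514 bp from the TSS, just beyond the limit, and ranked 16161. MetRS, for methionine, differed from the rest: it ranked 3279 in replicate 1 and 4218 in replicate 3, and had no summit within 500 bp in replicate 2 or in the pooled list. Of 2863 protein-coding genes at rank 5000 or better in 2 or more replicates, 67 lacked a pooled summit, and MetRS was the 1 member among them.

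Where 1 symbol exists both with and without the suffix -m, the cytosolic gene of the pair more often had the summit. There were 12 such amino acids. Optimal summits were at the cytosolic gene alone for 7 (alanine, asparagine, aspartate, isoleucine, serine, tryptophan and valine), at the mitochondrial gene alone for 2 (arginine and cysteine), at both for 0 and at neither for 3 (leucine, methionine and tyrosine). Of these pairs, 7 cytosolic genes (58.3%) and 2 mitochondrial genes (16.7%) had an optimal summit, beside 17.9% of all protein-coding genes. With so few mitochondrial genes called, the count of 0 at both does not show exclusion. Pooled summits were at 9 (75.0%) and 5 (41.7%), beside 49.1% of all genes. By rank in the pooled relaxed list, the cytosolic gene stood higher for 7, the mitochondrial for 3, and neither had a summit for 2. In replicates 1, 2 and 3 the cytosolic gene stood higher for 8, 7 and 9, and the mitochondrial for 3 each time. Pairing by symbol left out GluProRS, whose joined symbol matches neither ProRS-m nor GluRS-m, and PheRS-m. For proline, GluProRS (439) and ProRS-m (3552) both had an optimal summit. For glutamate, GluRS-m had none.

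Isoleucine, serine and asparagine had the optimal summit at the cytosolic gene alone. IleRS ranked 326, while IleRS-m had no pooled summit and 1 replicate summit, at rank 15997 in replicate 2. SerRS ranked 424, while SerRS-m had 1 replicate summit, at rank 5137 in replicate 2 and −397 bp from its TSS. AsnRS ranked 1469 and had a summit in each replicate, while AsnRS-m had none in any list. For arginine the order was the opposite one in the pooled list, with ArgRS-m at 2157 and ArgRS at 6935. Replicates 1, 2 and 3 had ArgRS-m at 2014, 3569 and 1483 and ArgRS at 3200, 9406 and 15011, so each placed ArgRS-m higher.

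The enzymes also fall into classes I and II by the fold of their catalytic domain, with GluProRS in both. Optimal summits were at 6 of 19 class I members (31.6%) and 7 of 15 class II members (46.7%), beside 17.9% of all protein-coding genes. Pooled relaxed summits were at all 9 class II cytosolic enzymes and at 7 of 10 class I cytosolic enzymes, beside 49.1% of all protein-coding genes. HisRS, 1 of those 9, had no summit in any replicate. Among mitochondrial enzymes the optimal order was the opposite one, with 2 of 9 class I (22.2%) and 1 of 6 class II members (16.7%). Pooled summits were at 4 (44.4%) and 3 (50.0%) of these. In mammals a set of cytosolic synthetases is held in a multi-synthetase complex. Of the 8 fly counterparts, 3 had an optimal summit (AspRS, GluProRS and IleRS), compared with 6 of the other 10 cytosolic enzymes. Through its joined symbol, GluProRS counted among the 6 cytosolic genes with no mitochondrial gene of the same symbol. Of these 6, 2 had an optimal summit (GluProRS and ThrRS, 33.3%) and 6 a pooled one. Of the 12 cytosolic genes with such a partner, 7 had an optimal summit (58.3%) and 9 a pooled one (75.0%), to be read beside the same 17.9% and 49.1% of all genes.

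All 12 optimal summits lay upstream of the TSS of the synthetase. The median position was −129 bp and the range −425 to −11 bp, against a median of −131 bp over the 2502 protein-coding genes with an optimal promoter summit, of which 89.7% had it upstream. Intergenic sequence held 9 of the 12 summits (75.0%), a share that was not computed over all optimal promoter summits. The others were in the 3′ UTR of CG13392 (AlaRS), in the 5′ UTR of CG17260 (SerRS), and in the 5′ UTR of Nmda1 within an intron of AspRS. AspRS has 3 annotated TSS positions, and its summit at −121 bp belonged to an internal one. With the 5′-most TSS only, the count was 11.

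The replicates placed most of these summits close together. The highest promoter summits of replicates 1, 2 and 3 spanned 14 bp at GluProRS, 18 bp at SerRS, 25 bp at ValRS, 29 bp at IleRS and 34 bp at ThrRS. CysRS-m, ArgRS-m and AlaRS spanned 54, 62 and 71 bp. The widest spans were 108 bp at AsnRS, 155 bp at TrpRS and 187 bp at AspRS. ValRS thus had a wide spread of ranks at nearly the same position, while AspRS was among the highest peaks of every replicate at scattered positions.

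**Figure D3:**
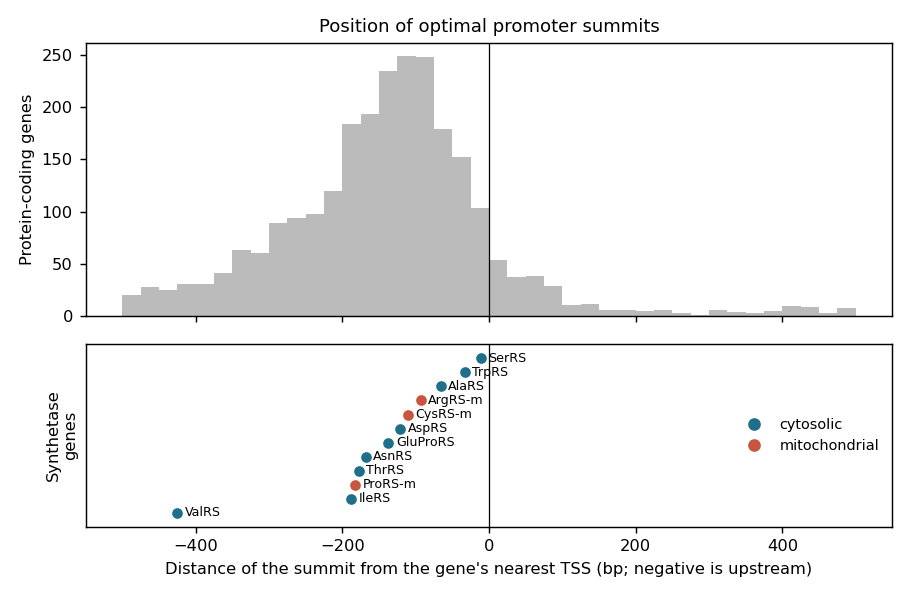
Distance in bp from the nearest TSS of a gene to its highest optimal summit, as a histogram in bins of 25 bp for 2502 protein-coding genes (top) and for each of the 12 synthetase genes (bottom, coloured by enzyme class). The synthetase summits lie between −425 and −11 bp, with ValRS apart from the other 11.

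Most of these summits also reached a neighbouring gene. At 11 of 12 (91.7%) another gene had a TSS within 500 bp, on the opposite strand each time, and AlaRS was the exception. Over all protein-coding genes with an optimal promoter summit, 62.8% had their highest summit within reach of another gene on either strand. The opposite-strand share over all genes was not computed. Position alone does not tell which gene of such a pair the binding belongs to. The synthetase was the nearest gene at 6 of the 12 (AlaRS, ArgRS-m, AsnRS, IleRS, ThrRS and TrpRS).

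The neighbours had varied roles. At IleRS it was Hem, a regulator of actin assembly, at −282 bp. At GluProRS it was AP-1sigma, a subunit of a clathrin adaptor, at −123 bp, nearer than GluProRS at −137 bp. At SerRS the summit was 3 bp inside CG17260 and −11 bp from SerRS, and the start sites of the pair are 8 bp apart. ThrRS faced Patsas (−289 bp) and AsnRS faced DCTN6-p27, a dynactin subunit (−201 bp).

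TrpRS faced Vps16A, which acts in vesicle fusion at lysosomes, at −82 bp. The summit counted for ValRS at −425 bp was −88 bp from Kdm4B, a histone demethylase. CysRS-m shared its summit with O-fut1, which adds fucose to Notch (−57 bp), and ProRS-m with Snup, an snRNP import factor, and CG42304 (−56 bp each). ArgRS-m faced CG17816 at −219 bp, and the AspRS summit lay 67 bp inside Nmda1. When each summit counted only for the gene with the nearest TSS, the members with an optimal summit were 6 (18.2%, against 12.8% of all protein-coding genes), 5 cytosolic and 1 mitochondrial. The pooled relaxed count was then 13 (39.4%, against 40.6%), the members' share being then below that of all genes.

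Divergent promoters were common among the synthetases. An opposite-strand protein-coding TSS lay upstream within 1000 bp at 23 of 33 members (69.7%), 16 of 18 cytosolic (88.9%) and 7 of 15 mitochondrial (46.7%), against 36.2% of all protein-coding genes. Among members with such a neighbour, 11 of 23 had an optimal summit (47.8%), and among the other 10 members 1 had. Over all protein-coding genes the shares were 32.6% with a divergent neighbour and 9.57% without.

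Within divergent promoters, optimal summits were at 8 of 16 divergent cytosolic genes (50.0%) and 3 of 7 divergent mitochondrial genes (42.9%). In the pooled relaxed list the counts were 13 of 16 (81.2%) and 4 of 7 (57.1%), beside 67.7% of all divergent protein-coding genes. None of the 8 mitochondrial genes without a divergent neighbour had an optimal summit, and 3 had a pooled one (37.5%). Of all protein-coding genes without such a neighbour, 9.57% had an optimal summit and 38.6% a pooled one. Only 2 cytosolic genes had no such neighbour, of which 1 had an optimal summit and 2 a pooled one. The part of promoter arrangement in the difference between the classes was not tested.

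**Figure D4:**
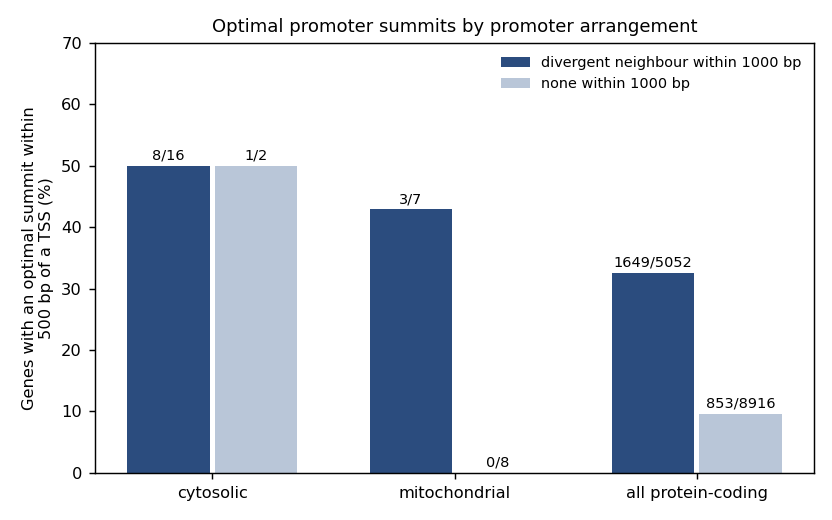
Percentage of genes with an optimal summit within 500 bp of a TSS, for genes with an opposite-strand protein-coding TSS upstream within 1000 bp (dark bars) and for the others (light bars), with the number of genes above each bar. The divergent bars are at 50.0% for cytosolic, 42.9% for mitochondrial and 32.6% for all protein-coding genes.

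The summits at synthetase promoters were rich in A and T. GC content in the 100 bp windows was 27.3% ± 5.52 (SD over the 12 windows), from 21.0% at CysRS-m and ProRS-m to 40.0% at ArgRS-m. Over all optimal promoter summits it was 34.2% ± 9.54 (SD over 1991 windows). In the 300 bp promoters (250 bp before and 50 bp after the 5′-most TSS), GC was 36.3% ± 6.83 over the 33 members and 39.1% ± 7.74 over all protein-coding genes. Members with and without an optimal summit had promoter means of 35.3% and 36.9%.

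Of the 8 motifs searched on both strands, TATAAA, the TATA box sequence, was in 7 of 12 member windows (58.3%), and in 22.1% of all optimal promoter windows and 21.6% of all optimal windows. In the shown windows it is marked in SerRS, ThrRS and AsnRS. CGATA, the core of the DNA replication-related element, was in 4 of 12 (33.3%, against 23.9% of promoter windows), and its full form TATCGATA, which contains the core, in 1, at TrpRS (8.33%, against 3.92%). TGCATA, the core bound by Su(Hw), was in 2, IleRS and AsnRS (16.7%, against 8.14%), and GAGAG in 1 (8.33%, against 7.63%). GGTCACACT, CACGTG and CAGCTG were in none of the 12 windows, and in 1.16%, 1.00% and 3.82% of promoter windows. GluProRS, AspRS and ArgRS-m held no match at all. A match is a run of letters and no site, and the part of the low GC content in the TATAAA share was not tested.

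Genes that work with the synthetases were read against the same 17.9% of all protein-coding genes. Among 9 partner genes, 1 had an optimal summit (11.1%): GatA, a subunit of the amidotransferase that completes mitochondrial glutaminyl-tRNA, at rank 1249 and 1819, 1212 and 1011 in the replicates. GatB had a summit in no list. AIMP1, AIMP2 and AIMP3, the scaffold proteins of the multi-synthetase complex, had none in the pooled list. alpha-PheRS ranked 22138 in the pooled list, beta-PheRS had a summit in each replicate (2761, 21534 and 8165) but none in the pooled list, and Slimp, a seryl-tRNA synthetase paralogue, ranked 5802.

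Elongation factors include those that carry the charged tRNAs to the ribosome and those that move it along the mRNA. Of 10 matched genes, 3 had an optimal summit (30.0%, beside 17.9% of all protein-coding genes) and 9 a pooled relaxed one (90.0%, beside 49.1%). eEF1gamma ranked 264 (583, 271 and 194 in the replicates), eEF1alpha1 1174 (833, 1431 and 1331) and eEF2 2613 (2836, 2564 and 2918). The 4 mitochondrial factors mEFTu1, mEFTu2, mEFTs and mEFG1 had no optimal summit. In the response to uncharged tRNA, 3 of 6 genes had one: Gcn2, the kinase that senses uncharged tRNA (2003), the translation inhibitor Thor (1787) and eIF2beta (3210). crc, the fly ATF4, ranked 5927 in the pooled list and was outside the optimal one.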

How the data were processed

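The deposited peak lists are in the narrowPeak layout. Per the deposited listing of files, the relaxed lists hold peaks and background, 1 for each replicate and 1 for the pooled replicates, and the optimal list is what irreproducible discovery rate thresholding kept. For the aligner and caller, names and versions were not given in the sources used here. Per the labels a control experiment exists, which was not analysed here. The deposited signal value is a score of no stated scale, used to order peaks inside each list only. Not used were the dm3 lists and the −log10 q value that the authors deposited. The optimal list is the top of the pooled list by signal, which was checked.

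Summits (1-based, dm6) were set against every TSS of Ensembl release 115, within 500 bp. All 33 members' start codons read ATG in the RefSeq sequence of assembly release 6. A member's rank is that of its highest promoter summit. Every member is named; those with an optimal summit are given in full, as fixed with the gene lists. The members and lists were chosen with earlier results of these data known. Slimp was matched through a synonym and 1 listed elongation factor symbol had no match. No set test and no p-value was computed. Counting code was tested on planted summits. Python 3.11.15, numpy 2.4.6, pandas 2.3.3 and matplotlib 3.10.9 were used. Alternatives were the distance, the TSS chosen, nearest gene, stricter lists and leaving out a replicate.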

Additional observations from a re-analysis of the deposited data

How the results depend on the processing

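In the optimal list, the count of 12 members (9 cytosolic and 3 mitochondrial) stayed within 1.5 times of these values with limits of 250 or 1000 bp, with peak intervals over a TSS, with the 5′-most TSS and with the 2 PheRS subunit genes added. It was 4 (3 and 1) with summits within 100 bp, 12.1% of members against 6.41% of all genes. The mitochondrial share there was 6.67%, close to that of all genes. With the nearest gene only it was 6 (5 and 1), 18.2% against 12.8%. Among optimal peaks above the median signal it was 6, 18.2% against 10.4%, and the mitochondrial count was 0. Peaks of all 3 replicates gave 5 (4 and 1) at 100 bp, 15.2% against 11.0%, and 6 (5 and 1) at 500 bp, 18.2% against 11.8%. Leaving out a replicate gave 5 to 7 members (15.2% to 21.2%, against 12.0% to 13.1%), 4 to 5 cytosolic and 1 to 2 mitochondrial. In these sets fewer peaks entered by construction, and the optimal list they start from was still made from all 3 replicates. The pooled relaxed count of 22 was 11 within 100 bp (33.3%, against 22.1% of all genes) and 13 with the nearest gene only (39.4%, against 40.6%). No pooled list of 2 replicates was at hand, so members with a summit in both remaining replicate relaxed lists were counted instead. Without replicates 1, 2 and 3 these were 17 (51.5%, against 42.5%), 19 (57.6%, against 31.3%) and 16 (48.5%, against 30.4%). The cytosolic percentage was above the mitochondrial one in all 14 settings compared, including divergent promoters only, which was added after seeing the data. It was above that of all genes in the 13 settings set against one, and the mitochondrial percentage was in 7. The tally leaves out divergent promoters only, where the shares were 50.0% and 42.9%, beside 32.6% of all divergent protein-coding genes. No paired analysis was possible because the samples form 1 group. Depth is unknown, so a missing summit is not shown to be absent binding.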

Other observations

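The E-box CAGCTG was in none of the 12 optimal summit windows of 100 bp, and in only 3.82% of all optimal promoter windows. Promoters were read over 300 bp and at all 33 members, so their shares are not comparable with those of the windows. CAGCTG was in 16 of 33 member promoters (48.5%), 9 of 18 cytosolic and 7 of 15 mitochondrial, against 17.6% of all protein-coding promoters. Members with an optimal summit had it in 5 of 12 and the others in 11 of 21. Counted on the gene's strand, the 20 matches began between −241 and 31 bp from the 5′-most TSS, with a median of −30 bp. The 12 optimal summits had a median of −129 bp. They were sought within 500 bp of any TSS, a wider range than the promoters read, so these medians are not comparable either. GGTCACACT was in 4 of the 33 (12.1%, against 6.04%), and GAGAG in 6 (18.2%, against 29.7%). TATAAA was in 18 (54.5%, against 45.8%), CGATA in 21 (63.6%, against 47.3%) and TATCGATA in 5 (15.2%, against 9.36%). TGCATA was in 4 (12.1%, against 15.4%) and CACGTG in 2 (6.06%, against 4.2%). These shares were read after the summit windows were counted and have no test.

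TyrRS and GluRS-m lie in tandem on the minus strand of 3L, at 16417349 to 16419302 and 16415292 to 16417177. Neither had a pooled relaxed summit at its promoter, and the nearest pooled summits were 6595 and 4470 bp away. TyrRS has a divergent neighbour 295 bp upstream and is thus one of the divergent cytosolic members without an optimal summit. The other divergent members with no summit in the pooled list were AlaRS-m, AsnRS-m, LeuRS, MetRS and TyrRS-m, with start sites 35, 53, 216, 245 and 55 bp from their neighbours.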
